A study of Mus musculus with 2 samples.

Results

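Transcripts of the 7 mouse caseins and major whey proteins were followed in medullary thymic epithelial cells (mTEC), the epithelial cells of the thymic medulla. The members were all transcript lines whose RefSeq accession maps to Csn1s1, Csn2, Csn1s2a, Csn1s2b, Csn3, Wap or Lalba, and each gene had 1 line, so 7 of 30794 lines and 7 of 23123 gene symbols. Poly(A)-selected RNA was sequenced from mTEC sorted by surface MHC class II. Thymi of several B6 mice with wild-type genotype were pooled, age and sex are not given in the sources used here, and no gene was deleted and no agent given. The group with high MHC class II (mTEChi) holds the mature cells, and that with low MHC class II (mTEClo) holds immature mTEC among others. With 1 library of pooled animals per group, differences could not be checked in replicates or tested, and all that follows describes these 2 libraries. Paired reads of 100 bases (mTEChi) and single reads of 50 bases (mTEClo) were used, so read type and group cannot be told apart.

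Caseins are the phosphoproteins that carry calcium phosphate in milk. The calcium-sensitive caseins (Csn1s1, Csn2, Csn1s2a, Csn1s2b) bind calcium through clusters of phosphorylated serines, and kappa casein (Csn3) coats the micelle they form and keeps it in solution. Whey acidic protein (Wap) is a small secreted protein rich in disulfide bonds, and alpha-lactalbumin (Lalba) turns the galactosyltransferase B4galt1 into lactose synthase. In the mammary gland these genes are switched on in pregnancy and lactation by prolactin, acting through Jak2 and the transcription factor Stat5, together with glucocorticoids and Elf5. mTEC transcribe many genes of other organs, in part under the control of Aire, and display their products to developing T cells, and the casein locus has been studied as an example.

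Promoters of 5 of the 7 members were found in the RefSeq promoter table (build GRCm38.p6), and those of Csn1s2b and Csn3 were not used. The 250 bases before each annotated start are shown 5′ to 3′ in the gene's direction, because all members were listed higher in the same library and the caseins share their mammary regulators. Capitals mark matches to TTCNNNGAA, the palindrome that STAT factors bind, and, in Csn2 and Csn1s1, the longest run of bases that both windows hold. Csn2 lies at chr5:87699426-87699675 on the minus strand, Csn1s1 at chr5:87665958-87666207 on the plus strand and Csn1s2a at chr5:87774200-87774449 on the plus strand. The whey genes are elsewhere, Wap at chr11:6638650-6638899 on the minus strand and Lalba at chr15:98482684-98482933 on the minus strand.
Csn2: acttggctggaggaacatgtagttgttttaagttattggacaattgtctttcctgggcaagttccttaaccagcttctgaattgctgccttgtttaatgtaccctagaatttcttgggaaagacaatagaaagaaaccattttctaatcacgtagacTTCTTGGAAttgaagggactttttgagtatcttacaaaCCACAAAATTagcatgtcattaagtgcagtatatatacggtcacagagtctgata
Csn1s1: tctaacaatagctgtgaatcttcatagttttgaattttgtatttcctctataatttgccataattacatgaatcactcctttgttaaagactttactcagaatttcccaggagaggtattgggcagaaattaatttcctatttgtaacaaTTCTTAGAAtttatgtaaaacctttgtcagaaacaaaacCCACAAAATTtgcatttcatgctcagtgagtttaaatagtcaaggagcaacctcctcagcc
Csn1s2a: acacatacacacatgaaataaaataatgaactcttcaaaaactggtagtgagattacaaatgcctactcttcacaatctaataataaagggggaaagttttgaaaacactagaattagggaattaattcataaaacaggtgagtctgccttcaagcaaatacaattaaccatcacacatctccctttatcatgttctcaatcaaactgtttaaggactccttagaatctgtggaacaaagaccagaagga
Wap: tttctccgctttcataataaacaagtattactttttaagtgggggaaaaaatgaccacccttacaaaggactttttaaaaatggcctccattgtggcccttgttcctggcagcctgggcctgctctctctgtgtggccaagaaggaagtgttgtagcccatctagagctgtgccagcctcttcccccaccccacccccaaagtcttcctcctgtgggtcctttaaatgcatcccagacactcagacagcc
Lalba: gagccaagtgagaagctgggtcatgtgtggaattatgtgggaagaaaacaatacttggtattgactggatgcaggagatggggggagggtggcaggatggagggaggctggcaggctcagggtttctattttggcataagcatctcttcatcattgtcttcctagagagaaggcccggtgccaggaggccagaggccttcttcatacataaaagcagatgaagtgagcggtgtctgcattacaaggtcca

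Motifs were searched on both strands from 250 bases before to 50 bases after the start, and position 1 is the annotated start. TTCNNNGAA was present in 3 of the 5 windows, all of caseins, and in 8.30% of 32851 promoter windows of the same length. Csn2 held it as TTCTTGGAA at positions -93 to -85, and Csn1s1 as TTCTTAGAA at positions -100 to -92. In Csn1s2a the match TTCTTAGAA lay after the annotated start, at positions 21 to 29, outside the bases shown. Csn1s1 and Csn1s2a shared the run TTCTTAGAATT, which includes this match and occurs in 8 windows. The run shared by Csn2 and Csn1s1, CCACAAAATT, started at position -55 in Csn2 and at -61 in Csn1s1 and occurs in 21 windows (0.0639%). The octamer ATTTGCAT was present in Csn1s1 at positions -54 to -47 (1.74% of windows), overlapping the end of that run. Shared runs were not particular to the caseins. Wap and Lalba shared TTGTTCCTGG (10 bases, in 48 windows), and Csn2 and Wap shared GGACTTTTT (9 bases, in 97 windows). Each is the longest run of its pair, so a low share of windows follows in part from that choice. TATATA was present in Csn2 from position -26 to -19 as a pair of overlapping matches (5.67% of windows). The steroid receptor core TGTTCT was present in Csn1s2a at positions -59 to -54 (18.97% of windows). Neither TTGCNNAA (C/EBP factors, 10.8% of windows) nor TATAAA (13.62%) was found in any of the 5 windows. The 250 bases before the start of the caseins were poor in G and C, with 32.8% to 36.8%, against 49.6% in Wap, 50.8% in Lalba and a median of 52.4% over the same 250 bases of all promoters. The shares over all windows were not matched for base composition. A match is a string of letters and not a site shown to be bound.

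Values are RPKM, read numbers divided by transcript length and by library size, so levels can be compared between genes. From the steps in the low values the mTEChi library held about 114600000 reads and the mTEClo library about 21000000. In mTEClo 28.0% of all lines were at 0, against 9.14% in mTEChi, and Rps21, a ribosomal protein gene used by every cell, was listed at 144 RPKM in mTEChi and at 0 in mTEClo, so a value of 0 can be a failed estimate. The label of the sort was checked against markers. Epcam had 198 RPKM in mTEChi and 127 RPKM in mTEClo, H2-Aa had 4908 and 1524 RPKM, and Aire 122 and 15.9 RPKM. Of 15 mTEC markers, 10 were at least 2-fold higher in mTEChi and 3 lower. Of genes above 0 in mTEClo that passed the filter given below, 11.4% were higher and 9.87% lower. The 3 lower markers were Ccl21a (354 and 3238 RPKM), Krt14 and Krt5. Krt5 passed 2-fold with the scaling of mTEClo given below, but not without it. Markers of other cells were present in both. Summed over their lists, fibroblast and pericyte markers (9 of 9 found) had 164 RPKM in mTEChi and 747 in mTEClo (37.9 and 698 without Rgs5, a pericyte gene that was higher in mTEChi), endothelial markers (7 of 7) 18.0 and 144, and erythroid markers (5 of 6) 358 and 5580. Dendritic cell and macrophage markers (12 of 13) had 552 and 149 RPKM, most of it Lyz2 (493 and 133). B cell markers (7 of 8) had 29.0 and 12.3 RPKM and thymocyte markers (10 of 10) 16.8 and 12.4. Listed at 0 in mTEClo were Flt3, Xcr1, Clec9a, Siglech, Cd79a, Ms4a1, Pax5, Cd22 and Rag2. In mTEChi these were low too, from 0.0103 RPKM (Rag2) to 1.98 RPKM (Cd79a). A 0 is common at low levels. Of other genes within 1.3-fold of 0.490 RPKM in mTEChi, 40.9% were at 0 in mTEClo. In bulk RNA, fewer cells of a type and less RNA per cell cannot be told apart, and the part of these cells in the milk gene values was not tested.

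All 7 milk protein genes were listed above 0 in mTEChi and 2 of them, Csn2 and Csn3, in mTEClo. Beta casein dominated both libraries. Csn2 made up 95.03% of the summed RPKM of the 7 genes in mTEChi (420.8 RPKM in all) and 99.3% in mTEClo (93.9 RPKM in all). In mTEChi Csn2 stood 46.3-fold above the next member, Csn1s2a, and the 6 other members together had 20.9 RPKM. In mTEClo Csn2 was 141-fold above Csn3.

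**Figure D1:**
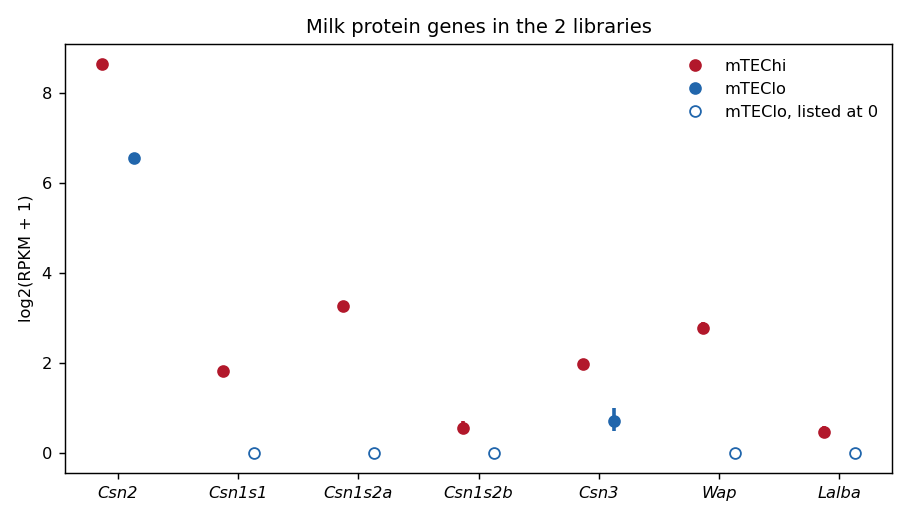
Level of each milk protein gene in mTEChi (red) and mTEClo (blue), on a log2(RPKM + 1) scale, 1 library each; vertical lines are 95% counting intervals and open points are values listed at 0. Csn2 (400 and 93.2 RPKM) stands far above the other 6 genes, which are all below 9 RPKM in both libraries.

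Csn2, which encodes the major calcium-sensitive casein, had 400 RPKM in mTEChi and 93.2 RPKM in mTEClo. It ranked 88th of 23123 genes in mTEChi and 448th in mTEClo. The values correspond to about 60897 and 2596 reads, which give counting intervals (95%, exact Poisson) of 397 to 403 RPKM and 89.6 to 96.9 RPKM. Counting intervals cover counting error only, and mates of a pair are not independent molecules. If the shortest coding transcript of 722 bases was counted rather than that of 1329, the Csn2 reads were about 33083 and 1410. The ratio of mTEChi to mTEClo was 4.29. After mTEClo was multiplied by 1.21, the factor that sets the median log2 ratio of 5167 well-expressed genes to 0, it was 3.55. On the log2(RPKM + 1) scale the change was 1.82. Dividing opposite ends of the 2 counting intervals gave a range of the scaled log2 ratio from 1.76 to 1.90. Such a range is wider than a 95% interval. Of 70 other genes within 1.3-fold of the Csn2 level in mTEChi, 8 had a larger change, 0 were listed at 0 in mTEClo, and the median change was 0.16. For comparison, Aire was higher in mTEChi by 2.61 on the same scale, and Fezf2, another regulator of tissue genes in mTEC, by 1.52 (144 and 41.01 RPKM).

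Csn3, kappa casein, was the other member above 0 in both libraries, with 2.99 RPKM in mTEChi and 0.659 RPKM in mTEClo. The mTEClo value rests on about 22 reads (13.8 to 33.3), or about 14 if the transcript counted was the shortest coding one of 991 bases rather than that of 1596 bases. The scaled ratio of 3.75 had a log2 range of 1.19 to 2.70, formed from opposite interval ends as for Csn2. That range holds the Csn2 value, so that the 2 ratios could not be told apart at this depth. With the pseudocount the change of Csn3 was 1.15, and 0.46 when 5 RPKM was added instead of 1. Csn3 ranked 10617th in mTEChi and 13627th in mTEClo.

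Csn1s2a and Csn1s2b, a pair of calcium-sensitive casein genes next to each other on the chromosome, differed in level. Csn1s2a had 8.63 RPKM in mTEChi (about 910 reads, 8.08 to 9.21 RPKM) and was listed at 0 in mTEClo. At the mTEChi level, about 138 reads would have been expected in mTEClo. Of 2238 other genes within 1.3-fold of this mTEChi level, 52 (2.32%) were listed at 0 in mTEClo. Csn1s2b had 0.490 RPKM in mTEChi (about 45 reads, 0.357 to 0.655 RPKM) and was listed at 0 in mTEClo, where 6.88 reads would have been expected. Of the 1262 genes at its level 40.9% were at 0. Csn1s1, the remaining calcium-sensitive casein, had 2.53 RPKM in mTEChi (about 410 reads, 2.29 to 2.79 RPKM). It too was listed at 0 in mTEClo, against 61.98 reads expected, and 9.83% of the 1954 genes at its level were at 0. If the shortest coding transcript of 433 bases was counted rather than that of 1411, Csn1s1 had about 126 reads in mTEChi. Fewer reads would then be expected in mTEClo, and the interval would be wider.

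The whey genes followed the same order of libraries. Wap had 5.89 RPKM in mTEChi (about 372 reads, 5.31 to 6.52 RPKM) and was listed at 0 in mTEClo, where 56.3 reads would have been expected, and 3.93% of the 2241 genes at its level were at 0. Lalba had the lowest level of the 7, 0.380 RPKM in mTEChi (about 34 reads, 0.263 to 0.531 RPKM). It was listed at 0 in mTEClo, where 5.08 reads would have been expected and where 49.1% of the 1122 genes at its level were at 0. In mTEChi the order from high to low was Csn2, Csn1s2a, Wap, Csn3, Csn1s1, Csn1s2b and Lalba, and the counting intervals of Csn3 and Csn1s1, and those of Csn1s2b and Lalba, overlap. No fold is given for the 5 genes listed at 0 in mTEClo.

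Read sharing with relatives was checked on the matched GENCODE transcripts. None of the 50-base windows of the 7 transcripts (502 in Wap to 1547 in Csn3) occurred in a transcript of another gene. Only exact matches to annotated transcripts were looked for, so sharing through mismatches or other parts of the genome was not tested. The transcripts were from 551 bases (Wap) to 1596 bases (Csn3) long, and had 4 exons in Wap and Lalba, 5 in Csn3, 9 in Csn2, 12 in Csn1s2b, 14 in Csn1s2a and 34 in Csn1s1, whose coding region is built from many short exons.

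For the comparison with all genes, those whose 2 values averaged at least 0.5 RPKM were kept, and a change of 2-fold was the threshold. Of the 7 members, 5 passed this filter and all 5 were at least 2-fold higher in mTEChi, against 16.1% of 15590 kept genes, while 9.35% of those were at least 2-fold lower. For 3 of the 5, Csn1s1, Csn1s2a and Wap, the call follows from the filter together with the 0 in mTEClo, which 5.32% of kept genes had. Csn1s2b and Lalba did not pass the filter. Among kept genes above 0 in mTEClo, 11.4% were at least 2-fold higher and 9.87% at least 2-fold lower, and the members that could be read against this share are Csn2 and Csn3. Of all genes past 2-fold, 63.3% were higher in mTEChi, and 74.9% without scaling. Leaving out the scaling moved the median change of all kept genes from 0.03 to 0.25 and the change of Csn2 to 2.09.

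**Figure D2:**
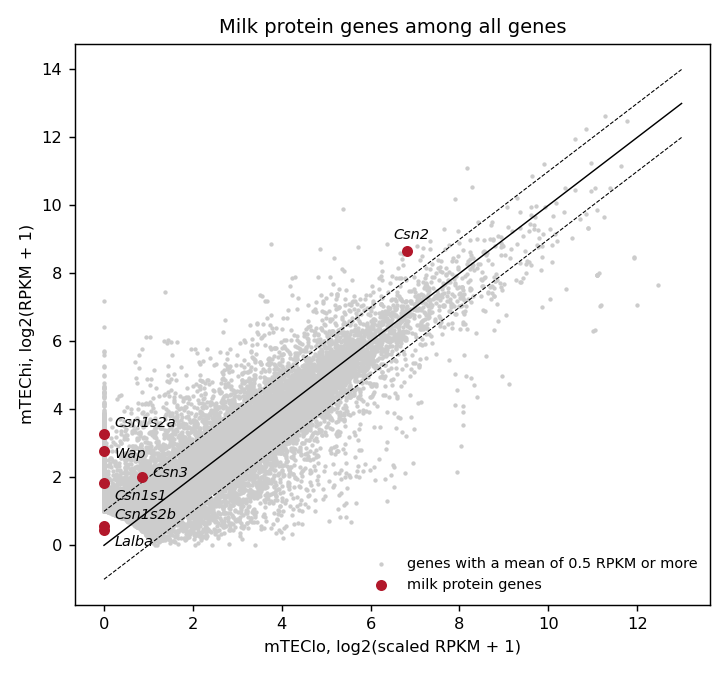
Each kept gene (grey) by its level in mTEClo (x axis, multiplied by the scaling factor of 1.21) and mTEChi (y axis), on log2(RPKM + 1) scales; the solid line marks equal levels and the dashed lines 2-fold. Csn2 lies above the upper dashed line among abundant genes, Csn3 lies just above it among low ones, and the 5 members on the left edge are listed at 0 in mTEClo; Csn1s2b and Lalba are drawn although they did not pass the filter.

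The genes whose pair of values lay nearest to that of a member were taken by Euclidean distance of log2(RPKM + 1) over the 2 libraries. Only kept genes were searched, and genes with provisional names were left out. Nearest to Csn2 were Cyp2a5, a cytochrome of liver and nasal tissue (387 and 92.96 RPKM, distance 0.046), Bpifa1, an airway secretory protein (381 and 86.6 RPKM, 0.13), and Cyba, a subunit of the phagocyte oxidase (388 and 83.3 RPKM, 0.17). They were followed by Dapl1 (0.25) and Asprv1, a skin protease (0.37). Nearest to Csn3 were Wfdc12, which carries the same domain as Wap (2.89 and 0.660 RPKM, 0.034), H2ac10 (0.045) and Vill (0.046). For the members listed at 0 in mTEClo only the mTEChi level sets the distance. The nearest were Reg4, Defa22 and Trh to Csn1s2a, Rln1, Defa39 and Pifo to Wap, and Fam229a, Vpreb3 and Bpifa2 to Csn1s1. With 2 libraries many genes share such a pair, and the distances are a description.

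The 5 caseins form a cluster on mouse chromosome 5, and its neighbours were listed at low levels. The 8 protein-coding genes before Csn1s1, the 8 after Csn3 and those between them, in RefSeq order, gave 18 genes with values besides the caseins. Their highest level in mTEChi was 6.41 RPKM, of Amtn, an enamel matrix protein, so none came near Csn2. In mTEClo 16 of the 18 were listed at 0, against 28.0% of all lines, but most had low mTEChi levels, and of all genes at the mTEChi levels of Csn1s2b and Lalba 40.9% and 49.1% were at 0. Of the 18, 6 passed the filter. For 5 of these a change of 2-fold follows from the filter and the 0 in mTEClo: Sult1b1 (2.33 RPKM in mTEChi) and Sult1e1 (1.20), a pair of sulfotransferases, Smr3a (2.80), a salivary protein, Amtn, and Ambn (1.16), another enamel protein. The 1 with values in both was the sulfotransferase Sult1d1, with 3.81 RPKM in mTEChi and 0.320 RPKM in mTEClo (change 1.79, or 0.71 with a pseudocount of 5 RPKM). Odam, a secreted relative that lies between Csn1s2b and Csn3, had 0.882 RPKM in mTEChi and was listed at 0 in mTEClo.

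**Figure D3:**
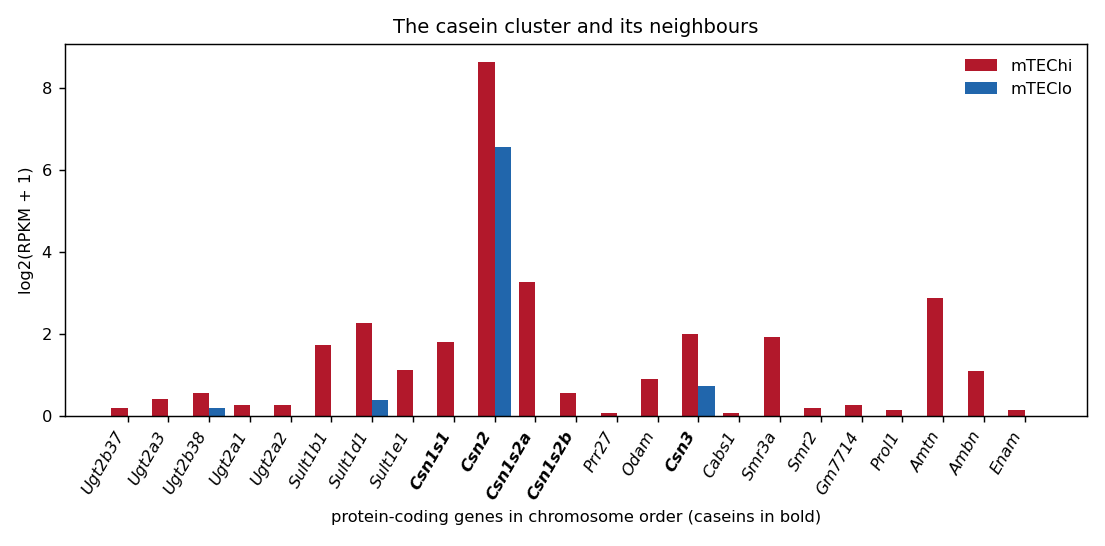
Levels in mTEChi (red) and mTEClo (blue) on a log2(RPKM + 1) scale for the caseins (bold) and their protein-coding neighbours, in chromosome order and not to distance; a missing blue bar is a value listed at 0. Csn2 (400 and 93.2 RPKM) stands alone in a region where no gene besides the caseins exceeds 6.41 RPKM.

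A list of the caseins' neighbours and other secretory calcium-binding phosphoproteins (16 of 18 found, 8 kept) held 5 kept genes at 0 in mTEClo, for which the filter sets the call. Of the 3 above 0 in mTEClo, 2 were at least 2-fold higher in mTEChi and 1 lower, against 11.4% and 9.87% of such genes. The median of the 8 was 1.66, and 0.59 without the filter. Spp1, osteopontin, a milk and bone phosphoprotein, had 48.4 RPKM in mTEChi and 12.7 RPKM in mTEClo (1.60), and Ibsp, bone sialoprotein, had 2.30 RPKM and was listed at 0. The lower member, Sparcl1, had 4.35 and 102 RPKM (-4.54), and 7 of 7 endothelial and 7 of 9 fibroblast and pericyte markers were at least 2-fold lower in mTEChi as well, a link that was not tested.

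Regulators of milk genes in the mammary gland, inhibitors of the prolactin pathway included, passed 2-fold about as often as all kept genes did. Of 27 prolactin and Stat5 genes, 24 were kept, 3 were higher in mTEChi by 2-fold or more and 2 lower (median -0.23, or 0.01 without scaling), against 16.1% higher and 9.35% lower over all kept genes. Among the 23 above 0 in mTEClo these were 2 and 2, against 11.4% and 9.87% of such genes. The prolactin receptor Prlr was near the filter in both libraries, with 0.608 RPKM in mTEChi and 0.857 RPKM in mTEClo, and prolactin itself, Prl, had 0.30 RPKM in mTEChi and was listed at 0 in mTEClo. Stat5a had 34.7 and 18.9 RPKM (0.58), Stat5b 14.7 and 10.4 RPKM (0.21) and Jak2 12.5 and 9.05 RPKM (0.18). Elf5, an ETS factor required for the secretory mammary epithelium, was higher, with 2.98 and 0.406 RPKM (1.42, or 0.54 with a pseudocount of 5 RPKM). The other higher genes were Foxa1 (10.7 and 3.92 RPKM, 1.03, close to the threshold) and Gh, growth hormone, with 6.57 RPKM in mTEChi and 0 listed in mTEClo. For Gh the call follows from the filter together with that 0. The lower genes were Socs3, an inhibitor of cytokine signalling (75.3 and 273 RPKM, -2.12), and Nfib (0.898 and 3.06 RPKM, -1.31). The Stat5 targets Cish (61.7 and 78.4 RPKM, -0.61) and Socs2 (-0.82) were not 2-fold apart. The glucocorticoid receptor Nr3c1 had 6.04 and 7.80 RPKM (-0.57).

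Other proteins of milk and of the lactating mammary epithelium went in both directions. Of 30, 29 were kept, 14 were higher in mTEChi by 2-fold or more and 4 lower (median 0.48, or 0.74 without scaling), against 16.1% and 9.35% of all kept genes. Among the 27 above 0 in mTEClo these were 12 and 4, against 11.4% and 9.87%. The largest changes towards mTEChi were of Saa3, an acute-phase protein (959 and 33.4 RPKM, 4.53), and Ltf, the iron-binding lactoferrin (31.99 and 1.62 RPKM, 3.48). Next were the water channel Aqp3 (2.94), Pigr, which carries immunoglobulin A across epithelia (76.96 and 8.18 RPKM, 2.84), Cel, a milk and pancreatic lipase (5.17 RPKM and listed at 0), and Muc1, a mucin of the milk fat globule (58.5 and 9.36 RPKM, 2.27). The lower genes were Glycam1 (1.17 and 19.1 RPKM, -3.48), Cd36 (-1.91), Pthlh (-1.52) and Lpl (-1.06). Lpl passed 2-fold with the scaling but not without it. Glycam1 and Cd36 are also made by endothelial cells, whose marker list was lower in mTEChi. Their part in these values was not tested. Among genes within 2-fold were Mfge8 (70.5 and 76.5 RPKM, -0.39), Xdh (-0.51) and Plin2 (-0.41), whose products are found with the milk fat globule as those of Muc1 and Cd36 are, and Fam20c, the Golgi kinase that phosphorylates caseins (21.0 and 12.2 RPKM, 0.48). B4galt1, the partner of Lalba, had 9.99 and 7.02 RPKM (0.21). Btn1a1, butyrophilin, did not pass the filter, with 0.44 and 0.26 RPKM.

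Of 15 epithelial markers used for the mammary gland, 14 were kept (median 0.20, or 0.47 without scaling). By 2-fold or more 3 were higher in mTEChi and 3 lower. All 14 were above 0 in mTEClo, and of such genes 11.4% were higher and 9.87% lower. The luminal keratins Krt8 (1015 and 701 RPKM, 0.26) and Krt18 (0.03) were within 2-fold. The basal keratins Krt14 (-1.57) and Krt5 (448 and 770 RPKM, -1.05) and the myoepithelial actin Acta2 (32.0 and 198 RPKM, -2.86) were lower in mTEChi, while the smooth muscle myosin Myh11 had 13.4 and 15.7 RPKM (-0.46). Krt5 passed 2-fold with the scaling but not without it. The medians of the fibroblast and endothelial markers were -4.03 and -2.79, and their part in the Acta2 value was not tested. The higher genes were Areg, a growth factor of the mammary duct (17.1 and 0.758 RPKM, 3.24), Tfap2c (2.29) and Aldh1a3 (1.81). Krt5, Krt14 and Epcam are thymic epithelial markers as well.

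**Figure D4:**
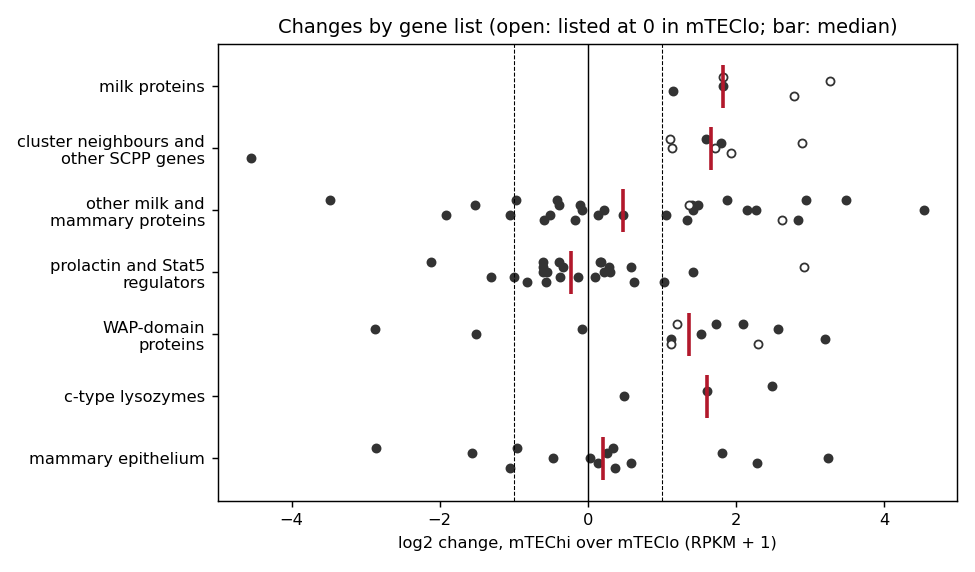
Log2 change (mTEChi over mTEClo, RPKM + 1) of the kept genes of each list, with the list's median as a red bar, 2-fold as dashed lines and genes listed at 0 in mTEClo as open points. Csn2 (1.82) and Csn3 (1.15) are the filled points of the milk proteins, whose 3 open points lie above 1 because of the filter; the prolactin and Stat5 regulators scatter around a median of -0.23 (0.01 without scaling), and the vertical offset of points within a list has no meaning.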

How the data were processed

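RNA of MHC class II high and low mTEC was sequenced in 1 library each after poly(A) selection and a library kit without strand information, per the labels' protocols. The authors deposited 1 RPKM value per RefSeq transcript line and library. Build mm9 and the tools bedtools, Bowtie 1.0.0 and CASAVA are listed, without roles, per the submitters' processing notes. The handling of reads with several matches was not stated in the labels. Of 30794 lines, a RefSeq gene table named 30216 and GENCODE 180, and 398 stayed unnamed; 874 were further copies of an accession. Each gene was represented by its line with the highest mean. Promoters come from RefSeq, GRCm38.p6, and no coordinates of that build were joined to the files.

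Changes are log2((mTEChi + 1)/(1.21 x mTEClo + 1)), a scale that understates changes of low genes, with a filter at a mean of 0.5 RPKM and 10 RPKM or more for the scaling. Depth was taken as the number of reads at which RPKM times GENCODE length is most often whole: of values with 1 to 10 reads, 76.03% (mTEChi) and 66.2% (mTEClo) lay within 0.1 of a whole number, so read numbers are approximate. Calling and depth recovery were tested on simulated data. Named genes are all members, and in each list the defining genes and up to 6 past 2-fold with the largest change; a few further list members, the other markers and the neighbours in chromosome order were chosen after their values were seen. The members and lists were chosen with earlier results of these data known. Spink4, placed in the list of WAP-domain proteins, has another inhibitor domain. List genes without a matching symbol were not analysed here. Alternatives were other pseudocounts, scalings, filters and the mean over a gene's lines. Scripts ran in Python 3.11.15 with matplotlib 3.10.9, scipy 1.17.1, pandas 2.3.3 and numpy 2.4.6.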

Additional observations from a re-analysis of the deposited data

How the results depend on the processing

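With a pseudocount of 5 RPKM 3 milk protein genes were at least 2-fold higher in mTEChi in place of 5 (Csn2, Csn1s2a and Wap), and with a filter at a mean of 5 RPKM 1, Csn2, as the others were not kept. Over all genes these settings gave 877 and 1010 higher genes in place of 2508, and 648 and 822 lower in place of 1457. Genes of the 6 related lists at least 2-fold higher numbered 24 and 21 in place of 38. Those at least 2-fold lower numbered 10 without scaling in place of 12. The median of the caseins' neighbours and related phosphoproteins was 1.66, and -1.47 at a mean of 5 RPKM or more, where Spp1 and Sparcl1 alone were kept. Csn2 ranged from 1.78 to 2.09 and stayed past 2-fold in every alternative run. Csn3 ranged from 0.46 to 1.78. Of 138 values for single genes and list medians under the alternatives, 136 kept their sign. The exceptions were the median of the neighbours and, without scaling, that of the prolactin and Stat5 genes (0.01). Part of this count was fixed in advance. A pseudocount cannot change the sign of a single gene, and a gene listed at 0 in mTEClo cannot come out lower in mTEChi. The count is therefore no measure of stability. The same upper quartile was set over genes above 0 in either library. No paired analysis was possible because each group has 1 library, and for the same reason no replicate could be left out. Depth limits Csn1s2b and Lalba, for which under 7 reads were expected in mTEClo.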

Other observations

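Of 23 genes in the list of WAP-domain proteins, 12 were kept, and 9 of these were higher by 2-fold or more and 2 lower (median change 1.36, but 0.64 when the pseudocount was 5 RPKM and 0.46 when no filter was applied). Among the 9 above 0 in mTEClo these were 6 and 2, against a background of 16.1% higher over all kept genes and 11.4% among those above 0 in mTEClo. Wfdc21 had 88.02 RPKM in mTEChi and 7.21 RPKM in mTEClo (3.20), Slpi, an inhibitor of neutrophil proteases, 39.2 and 6.99 RPKM (2.09), and Wfdc2 304 and 87.1 RPKM (1.52). Wfdc18, which is abundant in the mammary gland, was the highest of the list in both libraries and close to equal, with 1080 and 948 RPKM (-0.09). Also among the higher genes were Wfdc17 (128 and 31.5 RPKM, 1.73) and Wfdc15b, with 3.90 RPKM in mTEChi and listed at 0 in mTEClo. The lower genes were Wfikkn2 (17.2 and 109.97 RPKM, -2.88) and Wfdc1 (-1.51). Spink4 (2.57), counted among the higher genes, is a Kazal inhibitor without this domain.

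Among the 7 c-type lysozyme genes, the family of alpha-lactalbumin, 3 were kept, all above 0 in mTEClo, and 2 were at least 2-fold higher in mTEChi, against 11.4% of such genes (median 1.61, or 0.49 without the filter). Lyz1, the Paneth cell lysozyme, had 465 RPKM in mTEChi and 68.1 RPKM in mTEClo (2.48), and Lyz2, the myeloid one, 493 and 133 RPKM (1.61). The macrophage markers C1qb (2.44), C1qa (1.64) and Csf1r (1.51) were higher in mTEChi as well, and their part in the Lyz2 value was not tested. Lyz1 and Lyz2 are close in sequence, and the split of reads between them is uncertain. The testis lysozyme Lyzl4 had 2.11 and 1.01 RPKM (0.49).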
